A study of Mus musculus with 56 samples.

Results

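Broad domains of the histone variant H2A.Z were taken as the peaks of 5000 base pairs (bp) or more, end minus start, in the single H2A.Z peak set that the authors deposited for mouse embryonic stem cells. They numbered 2032 of 61420 peaks, 3.31% of the set, and covered 14.2 Mb, or 15.5% of the length of all peaks. They were chosen by width alone, a measured value of the peak calls, so their widths are given as a description: the range was 5000 to 20061 bp, the median 6279 bp and the quartiles 5532 and 7703 bp. Just inside the limit were domains of 5000 bp at Rnf157, Mdga1 and Fam174b, of which the one at Mdga1 was on the authors' list of lower peaks, and just outside it peaks of 4999 bp near Rimklb and of 4998 bp near Pik3cg and Lct, none of them on either list.

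The cells were of the RHKI(E14Tg2a) line, embryonic stem cells with an HA-tagged Rnaseh1 knock-in that doxycycline induces. H2A.Z was profiled by CUT&Tag, in which an antibody guides a transposase to chromatin, in 4 control libraries and 4 libraries of the same cells after 500 ng/ml doxycycline for 48 hours. Both groups carried the knock-in and grew in 2i/LIF medium with 2% FBS, 3 µM CHIR-99021 (a GSK3 inhibitor) and 1 µM PD0325901 (a MEK inhibitor). Cells without the knock-in were not analysed here, so an effect of doxycycline itself cannot be told apart from one of RNase H1. The other 48 of the 56 libraries, for other chromatin targets, were not analysed here.

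RNase H1 cuts the RNA strand of RNA:DNA hybrids, the core of R-loops, and the comparison asks where H2A.Z changes when it is induced. H2A.Z replaces histone H2A in nucleosomes beside transcription start sites and at enhancers, and is placed there by the SRCAP and Tip60/p400 exchange complexes. In embryonic stem cells it is also known to cover the promoters of silent developmental regulators that carry both the Polycomb mark H3K27me3 and H3K4me3, often over several nucleosomes, so wide H2A.Z domains are a place where such genes can be looked for. The data analysed are the authors' calls: a domain is called lower or higher here where its exact position is on their list of lower or higher peaks, read as doxycycline against control from the names of the lists, and unchanged where it is on neither. No value per library came with the calls, so the depth, the size of a change and the spread between replicates are unknown, and shares below carry 95% exact Clopper-Pearson intervals that cover counting only.

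The promoters of 6 developmental genes show what the domains hold, 4 from domains called lower (Irx3, Msx1, Foxa2, Wnt11) and 2 from unchanged ones (Foxd3, Bmp4). Each line is the RefSeq promoter window on GRCm38.p6, 300 bases from 250 before to 50 after a transcription start site (TSS), in the direction of the gene, with every CG dinucleotide, the CpG site where mammalian DNA is methylated, in capitals. The windows lie on chromosome 8, 91801605 to 91801904, minus strand (Irx3), chromosome 5, 37824536 to 37824835, minus strand (Msx1), chromosome 2, 148046920 to 148047219, minus strand (Foxa2), chromosome 7, 98834862 to 98835161, plus strand (Wnt11), chromosome 4, 99656049 to 99656348, plus strand (Foxd3), and chromosome 14, 46390620 to 46390919, minus strand (Bmp4).
Irx3: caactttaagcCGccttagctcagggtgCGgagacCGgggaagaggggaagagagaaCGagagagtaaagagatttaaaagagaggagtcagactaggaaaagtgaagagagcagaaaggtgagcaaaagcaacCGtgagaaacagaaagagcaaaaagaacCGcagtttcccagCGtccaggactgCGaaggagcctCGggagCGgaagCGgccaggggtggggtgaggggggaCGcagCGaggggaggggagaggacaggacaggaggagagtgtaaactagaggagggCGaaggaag
Msx1: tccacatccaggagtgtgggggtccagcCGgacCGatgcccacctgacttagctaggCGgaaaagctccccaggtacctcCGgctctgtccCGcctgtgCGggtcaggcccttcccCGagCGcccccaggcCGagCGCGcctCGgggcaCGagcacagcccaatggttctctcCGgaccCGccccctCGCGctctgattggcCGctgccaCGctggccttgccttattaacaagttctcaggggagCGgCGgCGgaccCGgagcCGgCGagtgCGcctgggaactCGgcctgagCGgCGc
Foxa2: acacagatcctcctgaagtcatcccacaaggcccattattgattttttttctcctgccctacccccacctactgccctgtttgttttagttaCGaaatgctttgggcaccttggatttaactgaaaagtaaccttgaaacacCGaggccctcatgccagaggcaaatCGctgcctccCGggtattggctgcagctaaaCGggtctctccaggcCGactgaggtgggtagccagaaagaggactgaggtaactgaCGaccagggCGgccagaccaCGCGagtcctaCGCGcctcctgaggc
Wnt11: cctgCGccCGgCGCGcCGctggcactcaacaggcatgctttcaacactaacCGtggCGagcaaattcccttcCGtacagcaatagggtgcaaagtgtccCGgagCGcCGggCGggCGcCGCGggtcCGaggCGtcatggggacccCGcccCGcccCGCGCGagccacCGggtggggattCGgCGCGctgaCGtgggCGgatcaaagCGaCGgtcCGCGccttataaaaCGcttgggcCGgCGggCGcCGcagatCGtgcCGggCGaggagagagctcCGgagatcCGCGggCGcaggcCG
Foxd3: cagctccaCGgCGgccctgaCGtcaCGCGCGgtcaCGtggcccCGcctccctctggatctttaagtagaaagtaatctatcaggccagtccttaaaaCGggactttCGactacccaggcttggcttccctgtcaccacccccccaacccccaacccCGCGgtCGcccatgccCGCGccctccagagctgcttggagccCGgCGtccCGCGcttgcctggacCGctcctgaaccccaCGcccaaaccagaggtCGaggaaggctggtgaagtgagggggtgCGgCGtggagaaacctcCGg
Bmp4: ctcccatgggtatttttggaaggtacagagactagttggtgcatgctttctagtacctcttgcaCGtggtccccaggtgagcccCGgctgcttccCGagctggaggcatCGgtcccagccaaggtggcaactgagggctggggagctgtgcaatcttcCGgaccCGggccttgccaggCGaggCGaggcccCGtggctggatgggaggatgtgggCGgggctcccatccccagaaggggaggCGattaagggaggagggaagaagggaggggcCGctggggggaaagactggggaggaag

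These windows held 14 CpG sites at Irx3, 29 at Msx1, 12 at Foxa2, 45 at Wnt11, 25 at Foxd3 and 12 at Bmp4. Over all 21263 promoter windows of protein-coding genes in the table, 95.4% held at least 1 CG on either strand, the dinucleotide being its own complement, and the median was 13. In these 6 windows the CpG count showed no order by call: Wnt11 (lower) stood highest and Foxa2 (lower) and Bmp4 (unchanged) shared the fewest. The Foxa2 domain held 3 listed TSS and the Wnt11 domain 2, of which 1 window each is shown. The 6 were chosen as examples and do not stand for the lower and unchanged domains.

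Of the 2032 broad domains, 153 were called lower (7.53%, 6.42 to 8.76%), 0 higher and 1879 unchanged. In the whole peak set 14.8% of peaks were lower and 0.518% higher. A count of 0 higher domains allows a share of up to 0.148% (3 counts of the total). The lower domains had a median width of 6145 bp and the unchanged ones 6287 bp. By width, the lower share was 8.10% at 5000 to 5999 bp (69 of 852), 8.37% at 6000 to 6999 bp (40 of 478), 7.22% at 7000 to 7999 bp (19 of 263), 7.61% at 8000 to 9999 bp (21 of 276) and 2.45% at 10000 bp or more (4 of 163, interval 0.673 to 6.16%). The intervals of the first 4 classes overlap one another, and that of the last lies just below the interval of the first (6.36 to 10.1%). Among narrower peaks the share was 13.6% at 501 to 999 bp, 18.4% at 1000 to 1999 bp and 13.5% at 2000 to 4999 bp.

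The value depends on where one peak is taken to end. The deposited peaks all lie at least 2001 bp apart, and when peaks with a gap of up to 3000 bp were joined first, 4124 intervals reached 5000 bp, 2701 of them made of several peaks. Of these 17.9% held a lower peak, above the 15.7% of all joined intervals. Of the 1423 made of a single peak, 116 were lower (8.15%). An interval with more peaks has more chances to hold a lower one, and whether this accounts for the difference was not tested. When most of the peak length had to be lower, a rule chosen after seeing the data, the share was 10.5%, against 14.8% of all joined intervals.

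**Figure D1:**
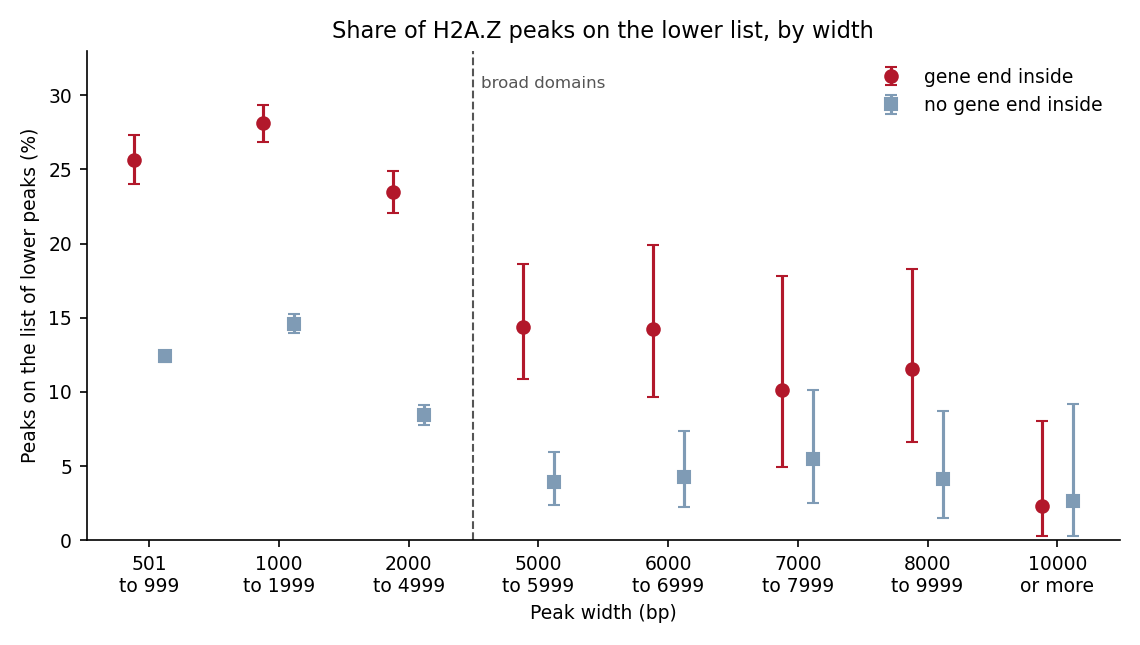
Share of H2A.Z peaks on the authors' list of lower peaks (y axis, percent) by peak width (x axis, bp), for peaks with a gene end inside, of protein-coding or lncRNA genes (red circles), and without (blue squares). Bars are 95% exact intervals and the dashed line is the limit of 5000 bp; with a gene end inside, the share was 23.5 to 28.1% in the 3 narrower classes and 2.30 to 14.4% in the broad ones.

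Lower domains held a gene end in a larger share than unchanged ones did. A gene end here is either outer boundary of a gene, protein-coding or lncRNA, since the gene table gives no strand. One lay inside 853 broad domains (42.0%), namely in 104 of 153 lower domains (68.0%, 60.0 to 75.3%) and in 749 of 1879 unchanged ones (39.9%, 37.6 to 42.1%). Seen from the other side, 12.2% of domains with a gene end inside were lower (104 of 853, 10.1 to 14.6%) and 4.16% of the rest (49 of 1179, 3.09 to 5.46%). Over all peaks with a gene end inside, 25.1% were lower, so the broad domains stood below the whole set at gene ends as well. With the centre of the domain within 1 kb of a gene end, a narrower rule, 37 of 153 lower domains (24.2%) and 235 of 1879 unchanged ones (12.5%) qualified, 13.4% of broad domains in all against 21.4% of all peaks.

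The lower share was highest at protein-coding genes. It was 16.1% for domains that hold the end of a protein-coding gene (94 of 584, 13.2 to 19.3%). For those inside the body of such a gene it was 9.55% (42 of 440, 6.97 to 12.7%). Where only a lncRNA gene ends it was 3.72% (10 of 269, 1.80 to 6.73%). Inside a lncRNA gene only, 0 of 106 were lower (0 to 3.42%). Outside all these genes the share was 1.11% (7 of 633, 0.446 to 2.27%). In the whole set the same classes had 28.5%, 18.2%, 11.4%, 7.97% and 8.52%. Outside genes the broad and overall intervals were 0.446 to 2.27% and 8.18 to 8.87%, the widest gap in relative terms of the 4 classes with a lower domain. In all, 139 of 153 lower domains overlapped a protein-coding gene (90.8%), against 928 of 1879 unchanged ones (49.4%).

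**Figure D2:**
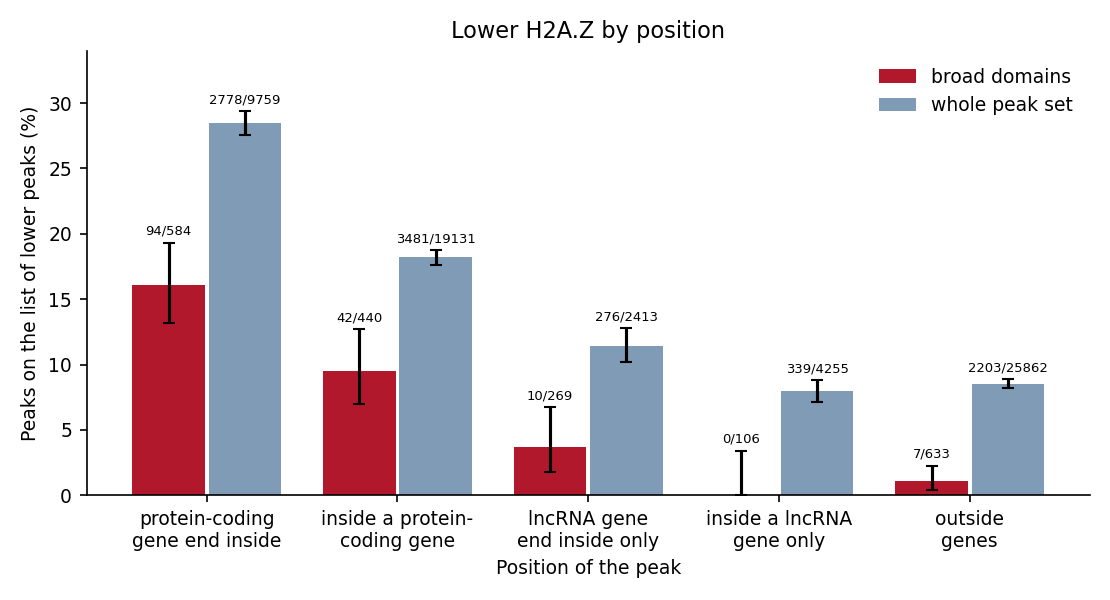
Share on the list of lower peaks (y axis, percent) for broad domains (red) and for the whole peak set (blue) in 5 classes of position (x axis); bars start at 0, error bars are 95% exact intervals and the labels give lower peaks over all peaks. Broad domains stand below the whole set in each class, at 94 of 584 against 2778 of 9759 where a protein-coding gene ends and at 7 of 633 against 2203 of 25862 outside genes.

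The authors' deposited table places the centres of the 153 lower domains in introns (69), between genes (30), in exons (25), in promoters (18), at transcript ends (5), in 3' UTRs (4), in a 5' UTR (1) and in a non-coding transcript (1). The median distance of the centre to the nearest TSS in the authors' deposited table was 2078 bp (quartiles 1052 and 8464 bp), and for 101 of the 153 (66.0%) the distance was no more than the reach of the domain on either side of its centre. In the same authors' deposited table it was above 10 kb at 32 domains. For all 9077 lower peaks the median distance in that table was 5570 bp. A repeat lay at the centre of 20 lower domains (13.1%) and of 17.5% of all lower peaks in the authors' deposited table, and young LINE-1 elements of the L1Md group, which were at the centre of 965 lower peaks, were at that of 0 lower domains.

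Some domains were as long as a whole gene. At least 1 protein-coding gene lay wholly inside 22 of 153 lower domains (14.4%, 9.24 to 21.0%) and 40 of 1879 unchanged ones (2.13%, 1.53 to 2.89%). Such a domain holds an end of a protein-coding gene, and 94 of 153 lower domains and 490 of 1879 unchanged ones held one. Among these lower domains with a whole gene were those over Irx3 and over Foxc1, a forkhead factor of mesoderm and eye (6642 bp). Others were over Nkx3-2, a homeobox factor of cartilage and the axial skeleton (6814 bp), and over Nkx2-3, a homeobox factor of gut and spleen (6578 bp). Genes outside the developmental lists were also covered, such as Trim47, Emilin1 and Apoa5. Domains with 3 or more gene ends inside, where genes stand close together, were 23 of the 153 lower ones and 72 of the 1879 unchanged ones.

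Among domains with 1 listed TSS, the position around it also differed between the calls. For 311 domains the promoter table lists exactly 1 TSS inside, 51 lower and 260 unchanged. Domains with several listed TSS were left out. The table holds a promoter for 76.4% of protein-coding genes with an end in a broad domain, so the values describe these domains only. They are no comparison of all lower with all unchanged domains, and a TSS missing from the table may also lie inside. The median lower domain reached 2330 bp before the TSS and 3844 bp into the gene, and the median unchanged domain 4380 bp before it and 2184 bp after it. More of the domain lay after the TSS than before it in 31 of 51 lower domains (60.8%, 46.1 to 74.2%) and in 96 of 260 unchanged ones (36.9%, interval up to 43.1%). Irx3 was near the middle, with 5386 bp before and 4339 bp after, and so was Msx1, with 4991 and 3627 bp. Foxc1 leaned into the gene, with 989 and 5652 bp. The unchanged domain at Foxd3 reached 6409 bp before and 7921 bp after.

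**Figure D3:**
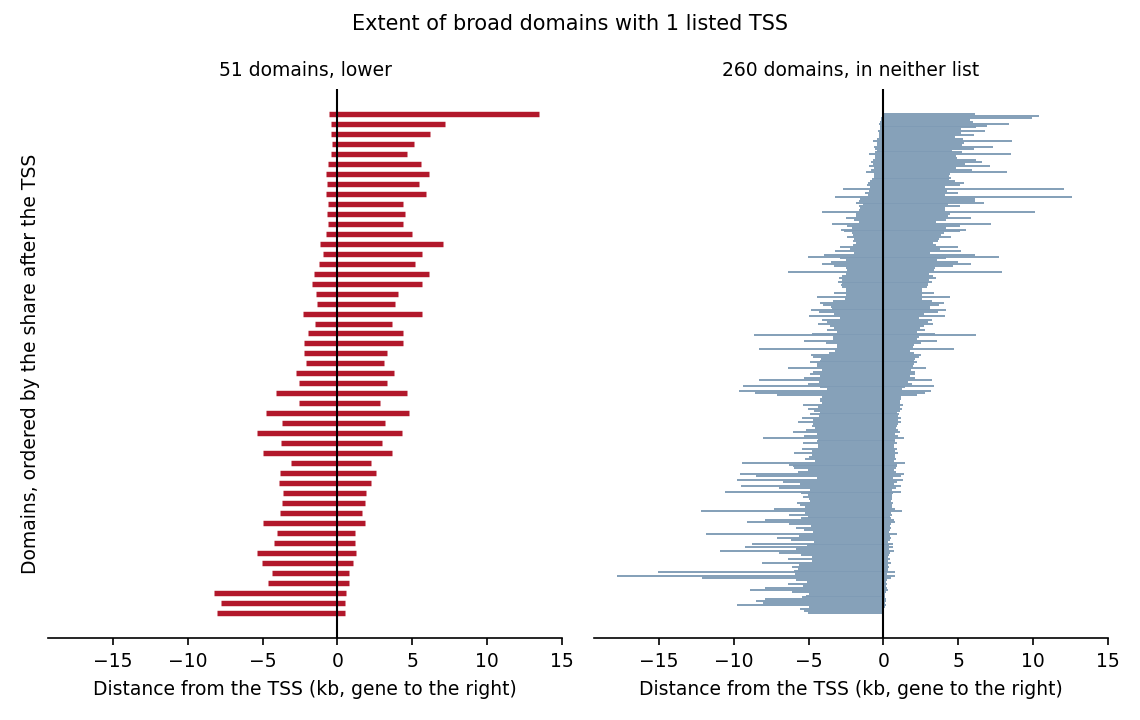
Extent of each broad domain that has 1 listed TSS inside, as a line from its first to its last base in kb from that TSS (x axis, the gene to the right), ordered by the share after the TSS (y axis); 51 lower domains on the left in red and 260 unchanged domains on the right in blue. The median share after the TSS was 59.8% on the left and 31.4% on the right.

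The widest lower domain was one of 14010 bp at Trim47, a tripartite-motif ubiquitin ligase gene (chromosome 11, 116096785 to 116110794), which covers the whole gene. It was followed by 12160 bp at the end of Cspg4, the NG2 proteoglycan of pericytes and oligodendrocyte precursors (chromosome 9, 56889678 to 56901837), 11289 bp inside Meltf, an iron-binding melanotransferrin (chromosome 16, 31882921 to 31894209), and 10218 bp inside Plec, the cytoskeletal linker plectin (chromosome 15, 76172053 to 76182270). These 4 were the lower domains of 10000 bp or more. Next came Emilin1, an elastic-fibre glycoprotein (9959 bp), Calhm2, of the calcium homeostasis modulator channel family (9751 bp), and Irx3, an Iroquois homeobox factor of neural patterning (9726 bp, chromosome 8, 91797315 to 91807040). A domain of 9723 bp that the authors' deposited table assigns to the microRNA gene Mir1900 holds an end of Icam5, a neuronal adhesion molecule.

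Smarcd3, which encodes the heart and muscle subunit BAF60C of the SWI/SNF remodelling complex, had a lower domain of 9548 bp, and Foxj1, the factor that drives formation of motile cilia, one of 9536 bp. A domain of 9347 bp was assigned to the splicing gene Syf2 at 92536 bp from its TSS in the authors' deposited table, the farthest of the domains named here. The last of the 15 widest with a named gene were at Grrp1 (8759 bp), Islr2, a leucine-rich repeat membrane protein of axons (8640 bp), Msx1, a homeobox factor of limb, tooth and face (8619 bp, chromosome 5, 37820958 to 37829576), and Slc25a34, of the mitochondrial carrier family (8544 bp). Just wider than these 4 was a domain of 8865 bp assigned to the unnamed model Gm10575 in the authors' deposited table. In all, that table assigns 10 of the 153 lower domains to such models and 7 to microRNA genes, and for 86 the assigned gene had an end inside the domain.

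The widest domains of all were unchanged. The first, of 20061 bp, lay inside Mapt, which encodes the microtubule protein tau of neurons (chromosome 11, 104286497 to 104306557). Of the 10 widest, others were at the end of Cyb561, a cytochrome of secretory vesicles (19523 bp), at Gjb5, a connexin of skin and placenta (18551 bp), inside the phosphodiesterase gene Pde4d (18131 bp), and inside Ptprj, a receptor tyrosine phosphatase (17108 bp). The other 5 had no end or body of a protein-coding gene inside: 19743 bp at 6464 bp from Itpk1, 18839 bp at 14020 bp from Psma6, 17044 bp at 5260 bp from Slc38a9, 16909 bp at 21284 bp from B4galt1 and 16193 bp at 20280 bp from Srp9. So 0 of these 10 were lower, beside 7.53% of all broad domains. Of the 10, 5 lay away from protein-coding genes, while 52.5% of all broad domains overlapped such a gene. Both counts were thus near the shares of all broad domains.

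Developmental regulators were counted from 13 lists of 625 genes, of transcription factor families (homeobox, Hox, forkhead, Pax, T-box, Sox and Gata, bHLH and other lineage factors) and of signalling and guidance genes (Wnt, FGF, BMP, Notch and Hedgehog, axon guidance). An end of such a gene lay inside 82 broad domains, of which 27 were lower (32.9%, 22.9 to 44.2%). Of 502 broad domains with an end of another protein-coding gene only, 67 were lower (13.3%, 10.5 to 16.6%). These 27 made up 17.6% of the lower domains, and the 55 others 2.93% of the unchanged ones. The median width was 6451 bp for the 82 domains and 6260 bp for the 502.

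The difference between developmental and other genes was there at every width. At 501 to 999 bp 17 of 32 peaks with a developmental gene end were lower (53.1%), against 29.5% of those with another protein-coding gene end. At 1000 to 1999 bp it was 68 of 120 (56.7%) against 29.5%, and at 2000 to 4999 bp 111 of 228 (48.7%) against 25.3%. Both kinds of gene thus had their lowest share in the broad domains, and the developmental genes in broad domains stood at 32.9% near the level of other genes in narrow peaks. The earlier results of these data had already shown developmental genes among the lower peaks, so the direction is no independent support.

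**Figure D4:**
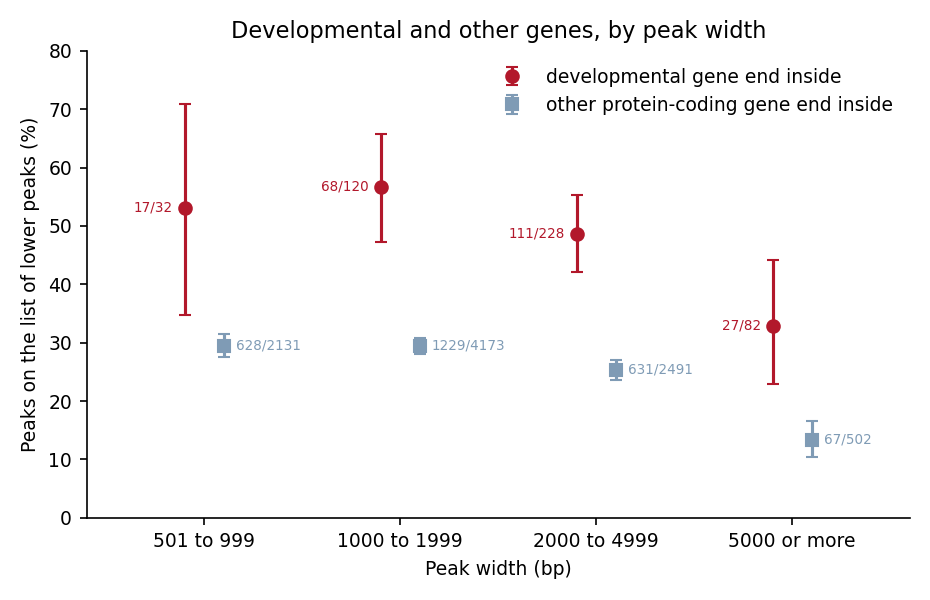
Share on the list of lower peaks (y axis, percent) by peak width (x axis, bp) for peaks with a developmental gene end inside (red circles) and for those with another protein-coding gene end only (blue squares); bars are 95% exact intervals and labels give lower over all peaks. The developmental share was 48.7 to 56.7% in the 3 narrower classes and 32.9% in broad domains, and that of other genes 25.3 to 29.5% and 13.3%.

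Counts for the lists below are to be read beside the 16.1% lower among all broad domains with a protein-coding gene end inside. The list of homeobox genes outside the Hox clusters held the most broad domains, 28, of which 9 were lower. The widest lower ones were at Irx3 and Msx1, then at Nkx3-2 (6814 bp) and Nkx2-3 (6578 bp). The other 5 were at Tlx1, a spleen factor, Emx1, of the developing cortex, Pou3f2, of neurons, Nkx6-3, of the stomach, and Irx5, a second Iroquois gene on the chromosome of Irx3, all between 5317 and 6262 bp. Among the 19 unchanged ones were Otx1 (9550 bp) and Otx2 (5138 bp), head and forebrain factors, Meis1 (8328 bp), and Six3, of forebrain and eye (5819 bp). Nkx6-3 stood on both sides: its lower domain of 5399 bp lies 2378 bp from an unchanged one of 13670 bp. The list does not hold every homeobox gene: Prox1, with an end in an unchanged domain of 7282 bp, is counted with the other genes. Also outside the 28 are domains with only a listed TSS inside, lower at Isl2, Irx4 and Hmx2 and unchanged at Lhx2.

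The forkhead list had 8 broad domains and 5 lower. The lower ones were at Foxj1, Foxc1 and Foxa2, the endoderm and floor plate factor (5645 bp, chromosome 2, 148043676 to 148049320). The other lower ones were at Foxl2, an ovary factor (5570 bp), and Foxf2, of mesenchyme (5214 bp). The 3 unchanged ones were wider than 4 of these 5: Foxd3, a factor of stem cells and neural crest (14331 bp, chromosome 4, 99649890 to 99664220), Foxa1, of endoderm (9087 bp), and Foxb2 (6659 bp). So the close relatives Foxa1 and Foxa2 carried different calls. Not among the 8 are unchanged domains at Foxp1, with only a listed TSS inside (6658 bp), and at Foxj2, which is not on the list (9478 bp).

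Other transcription factor lists had fewer broad domains than the homeobox list. Zinc finger and other lineage factors had 4 of 14, at Bcl11a, a blood and brain factor (6809 bp), Gfi1, of blood stem cells (6522 bp), Zfp423 (5558 bp) and Tcf7, a nuclear factor of Wnt signalling (5223 bp), while Gli1, the Hedgehog target (11260 bp), and Osr2 (10688 bp) were among the unchanged ones. Sox and Gata genes had 1 of 3, at Gata2, a blood stem cell factor (6869 bp), with Sox6 (11103 bp) and Gata3 (10527 bp) unchanged. T-box genes had 1 of 2, at the hindlimb factor Tbx4 (5507 bp), with Tbx18 unchanged (6326 bp).

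The bHLH list, which here includes related lineage factors, had 0 lower of 6, with Tfap2a, of neural crest and skin (10775 bp), Hand1, of heart and trophoblast (6531 bp), Tfap2c (6379 bp) and Neurod1, of neurons (6025 bp) the widest. Hox genes, which set position along the body axis, had 0 of 3: 1 of 10602 bp with ends of Hoxa3, Hoxa5 and Hoxa6 inside, 1 of 6753 bp with Hoxc5 and Hoxc6, and 1 of 5753 bp at Hoxc12. The only Pax domain, of 8533 bp at Pax1, was unchanged. With so few domains a list, these counts of 0 have a wide counting error, and their difference from 16.1% was not tested. Outside broad domains these families did have lower peaks. Of the genes with a peak over a gene end, these were 11 of 26 Hox genes, 23 of 47 bHLH genes and 1 of 6 Pax genes. Among all such protein-coding genes the share was 29.7% (3082 of 10394).

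Signalling lists had few broad domains, to be read beside the 16.1% lower among all domains with a protein-coding gene end inside. All 3 broad domains of the FGF list were lower. They lay at the receptor gene Fgfr4 (7195 bp), at Fgf11, an intracellular fibroblast growth factor homologue (6807 bp), and at Dusp4, which encodes an ERK phosphatase that dampens the pathway (5102 bp). The Fgfr4 domain was centred at a transcript end, 16561 bp from the TSS in the authors' deposited table, with no listed TSS inside. Both Wnt domains with a gene end inside were lower, at the ligand genes Wnt11 (7442 bp, chromosome 7, 98831859 to 98839300) and Wnt10b (6894 bp). Another domain, which held a listed TSS of the ligand gene Wnt5b but no outer end of that gene (5425 bp), was unchanged. Of the BMP, Nodal and TGF-beta domains 0 of 6 were lower. They lay at the ligand genes Gdf5 (7748 bp), Bmp4 (6709 bp, chromosome 14, 46385570 to 46392278), Gdf6 (5304 bp) and Tgfb3 (5283 bp) and at the secreted inhibitors Chrd (5198 bp) and Fst (5154 bp). Axon guidance genes had 2 of 6, at the ligand gene Ntn3 (6550 bp) and the receptor gene Nrp2 (5751 bp), with the receptor gene Plxna2 (10928 bp) and Rgma (5413 bp) unchanged. With 2 to 6 domains a list, each of these shares has a wide counting error, and the difference between lists was not tested.

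**Figure D5:**
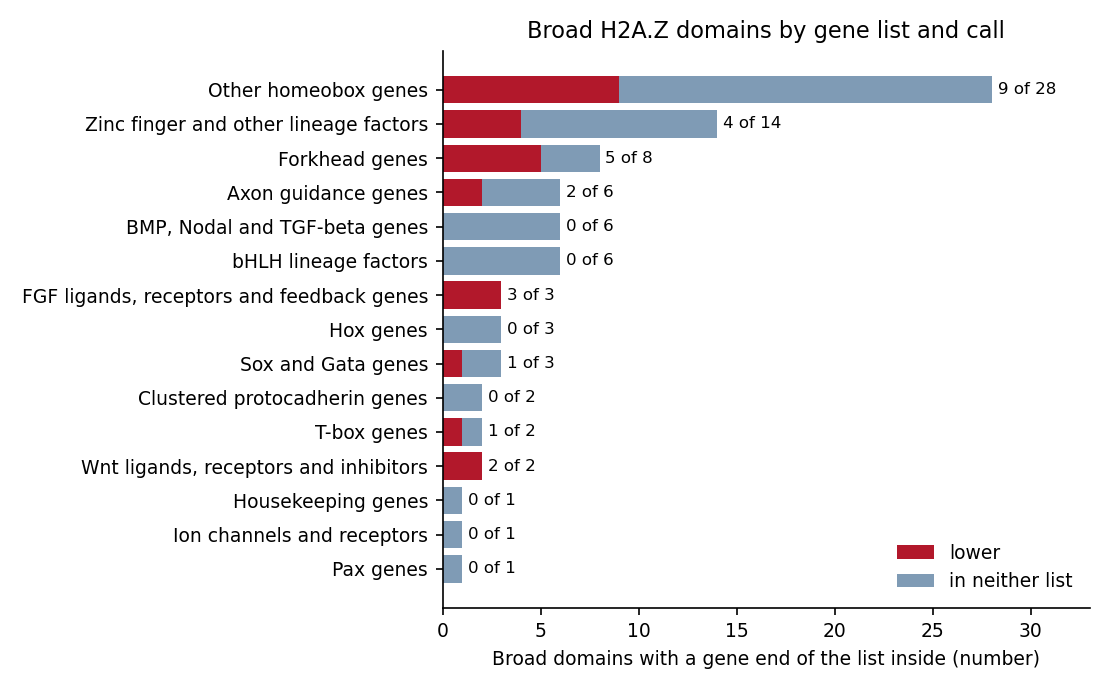
Number of broad domains (x axis) with a gene end of each list inside (y axis), lower in red and in neither list in blue, with lower of all domains printed beside each bar. FGF and Wnt domains are lower at 3 of 3 and 2 of 2, and BMP and bHLH domains at 0 of 6 each. A domain with only a listed TSS of Wnt5b inside is not counted and was unchanged.

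Of the 5 lists of other kinds of gene, 6 of 212 genes had an end in a broad domain (2.83%, 1.05 to 6.06%), near the 3.13% of all protein-coding genes (686 of 21900). None of the 26 pluripotency genes or 27 Polycomb genes had one there, although 6 and 14 of them had a peak over a gene end. Among the developmental lists the same held for the 24 genes of the Notch and Hedgehog list, 22 of them with a peak over a gene end. The Hedgehog target Gli1, in a broad domain of 11260 bp, is counted with the zinc finger list instead. In lists of this size a count of 0 is near the 3.13% of all protein-coding genes. Clustered protocadherin genes, adhesion molecules that give neurons their identity, had 2 domains, 1 of 11189 bp with ends of Pcdhgb7 and Pcdhga11 and 1 of 5780 bp with ends of Pcdhgb2 and Pcdhga5, ion channel and receptor genes 1, at the serotonin receptor gene Htr1b (7362 bp), and housekeeping genes 1, at the proteasome gene Psmb4 (5101 bp), all unchanged. The gene table places a gene by its outermost ends, and so misses a promoter inside a longer gene record. With a listed TSS counted too, 8 more domains had a developmental gene, and the share was 34.4% (31 of 90). Of the 8, 4 were lower, at Isl2, a motor neuron factor (7312 bp), Irx4, of the heart ventricle (6116 bp), Hmx2, of the inner ear (5506 bp), and Smarcd3. Among the unchanged ones were those at Lhx2 (10044 bp), Foxp1 (6658 bp) and Wnt5b (5425 bp).

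Lower broad domains had lower peaks beside them. Of the 181 nearest peaks within 10 kb on either side of a lower domain, 65 were lower (35.9%, 28.9 to 43.4%), against 263 of 2372 beside unchanged domains (11.1%, 9.85 to 12.4%). Narrower peaks showed the same, at 34.1% and 11.0%. Beside the 27 lower developmental domains 15 of 32 such peaks were lower (46.9%), and beside the 55 unchanged ones 12 of 58 (20.7%). Foxj1 had lower peaks on both sides and Irx3 no peak within 10 kb. Meis1 and Tlx2, in unchanged domains, each had a lower peak on both sides, while the unchanged domains at Foxd3, Gata3 and Tfap2a had none of their 2 flanking peaks lower.

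Broad domains also came in runs. With gaps of up to 20 kb between them, 468 of the 2032 fell in 217 runs of 2 or more, and 15 of these 468 were lower (3.21%), against 138 of 1564 single domains (8.82%). In the 30 runs of 3 or more, 1 of 94 domains was lower, at Wnt11. No run held 2 lower domains. Among the runs of 3 were those at Foxd3 (28.9 kb of domains in all), Slit3, an axon guidance ligand gene (19.1 kb), and Lifr, the receptor gene for the cytokine LIF in the medium (20.4 kb). Pde4d and Btbd11 had the most domains over their bodies, 4 each, all unchanged.

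By chromosome, broad domains were 2.19 to 4.14% of the peaks on chromosomes 1 to 19 and 0.270% on X, at 4 of 1482 peaks (0.0736 to 0.690%). Peaks on X were narrower throughout, with a median of 803 bp against 986 bp on chromosomes 1 to 19, and 9.58% against 17.1% of them measured 2000 to 4999 bp. The 4 X domains, all unchanged, lay at Klhl34 and near Ftsj1, Nlgn3 and Tlr8. The share of broad domains called lower ran from 1.59% on chromosome 18 (1 of 63) and 1.68% on chromosome 10 (2 of 119) to 9 of 60 on chromosome 19 and 16.1% on chromosome 8 (15 of 93, 9.32 to 25.2%). Over all peaks of these chromosomes the lower share was 12.1%, 11.1%, 18.6% and 17.4%, so chromosome 8 stood near its own share.

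Base composition was compared only for promoters in the table. It holds a promoter for 524 of the 686 protein-coding genes with an end in a broad domain (76.4%), and for 59 of the 84 developmental ones (70.2%), too few for such a comparison. The comparison of the sets is therefore void, and the values below describe the listed promoters only. The CpG ratio, the observed over the expected number of CpG sites, had a median of 0.60 for the 538 listed promoters in broad domains (quartiles 0.35 and 0.80), of 0.63 for the 110 in lower domains (0.39 and 0.80) and of 0.59 for the 428 in unchanged ones (0.35 and 0.80). It was 0.57 over all 21263 promoters (0.23 and 0.83), 0.73 for those in narrower lower peaks and 0.71 for those in narrower unchanged peaks. GC content had medians of 63.2% in lower and 57.3% in unchanged broad domains.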

How the data were processed

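CUT&Tag of H2A.Z was made in 4 control and 4 doxycycline libraries. The submitters' processing notes name the build GRCm38 and, among tools, deepTools, HOMER, Picard, Bowtie2 and Trimmomatic. Tool roles and versions, how peaks were called, which test and threshold made the lists and whether replicates were pooled were not given in the sources used here. HOMER annotatePeaks annotated the lists, per the file headers. Positions and distances to the TSS are those the authors deposited; the authors deposited a score that is 0 throughout and went unused. Starts are printed counting from 1. Depth is unknown.

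All 9077 lower and 318 higher peaks matched a peak of the set exactly. Gene names of lower peaks came from their Entrez IDs through a RefSeq table of GRCm38.p6 (152 of the 153 lower broad domains matched); unchanged domains were named after a protein-coding gene with an end inside, else a body overlapped, else the nearest. Promoters came from RefSeq (17492 of 21900 protein-coding genes, none on chromosome 18). The members, the 18 lists (829 genes, all matched) and the comparisons were chosen with earlier results of these data known. Genes were named by rule: the 15 widest lower and 10 widest unchanged domains, the first 4 genes by width of each list with 3 or more genes in a domain, lower before unchanged, and 3 on each side of the width limit, leaving out unnamed models; further members were named after their values were seen. No test over samples could be made, since no value per library came with the calls, and none was run over peaks, which are not replicates; medians have no error. The interval steps were tested on simulated data. Scripts ran on Python 3.11.15 with matplotlib 3.10.9, SciPy 1.17.1, pandas 2.3.3 and numpy 2.4.6.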

Additional observations from a re-analysis of the deposited data

How the results depend on the processing

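The share of broad domains called lower, 7.53%, was 8.96% at 4000 bp or more, 5.69% at 8000 bp or more, 13.6% for domains whose centre is at a gene end and, as a setting chosen after seeing the data, 16.1% for domains with a protein-coding gene end inside. With peaks up to 3000 bp apart joined it was 17.9% when any peak was lower. When most of the peak length had to be lower, also chosen after seeing the data, it was 10.5%. The 17.9% stands above the 15.7% of all joined intervals, so the order against the whole set turned there. For the joined intervals of 5000 bp or more made of a single peak the share was 8.15%. The share at a gene end, 13.4%, was 7.33% within 500 bp, 37.8% within 3000 bp, 42.0% with a gene end inside and 8.17% for protein-coding genes only. The other 13 of 23 alternatives, among them all 6 for developmental regulators (23.7 to 35.5%) and all 3 for the CpG ratio (0.59 to 0.61), stayed within the 95% interval of the main value. No paired analysis was possible because the calls carry no value per library, and for the same reason no library could be left out.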

Other observations

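Other lower broad domains lie at genes named here after their calls were seen. Domains of 8230 bp and 7676 bp lay over the ends of Gad1, which makes the neurotransmitter GABA, and of Slc32a1, which loads it into vesicles, while the domain of 6455 bp at Gad2, the other GABA-synthesis gene, was unchanged. Domains lay over Myl7, an atrial myosin light chain (6141 bp), and inside Hcn4, the pacemaker channel of the sinus node (6354 bp), and Kcnh2, a potassium channel of heart muscle (6484 bp). Other genes of heart or muscle had unchanged domains, such as Hand1 (6531 bp), Tpm1 (6732 bp) and Lrrc10 (6251 bp). Heart genes were not counted as a set, so these examples give no share. A domain of 5639 bp lay at Mest, an imprinted gene, and 1 of 5971 bp inside Nr4a2, a factor of dopamine neurons. Hcn4, Kcnh2 and Nr4a2 are on the gene lists, but none of their ends lay in these domains, so the counts of the lists leave them out.

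In 3 more places besides Nkx6-3, a lower broad domain lay within 5 kb of an unchanged one: at Cdcp2 (7469 and 5696 bp, 2531 bp apart), at Atg9b (7036 and 7770 bp, 2919 bp apart) and at a domain inside Sptb, the spectrin gene of red cells (8066 and 5893 bp, 2792 bp apart).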
